A study of Homo sapiens with 12 samples.

Results

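Interferon-stimulated genes were followed in human neurons in which the zinc knuckle protein gene ZCCHC17 had been silenced. A list of 34 such genes was taken by symbol from a table of 59653 genes, and all 34 were found; the RNA sensor RIG-I stands in it under its older symbol, DDX58. The table comes from 12 RNA-seq libraries of neurons grown from induced pluripotent stem cells, which were made from the fetal lung fibroblast line IMR-90, so every library shares 1 genetic background. Control cells (siNC, 6 libraries) received a negative control siRNA, and silenced cells (siZCC, 6 libraries) received the ZCCHC17 siRNA. The labels call the cells neurons, while the sample titles carry the letters NPC, which are not explained. No interferon, virus or other stimulus is named for either group, so the values describe the level of these genes in siRNA-treated cells. None of the 12 libraries is from untreated cells, so a response to siRNA as such was not tested. The groups received different siRNAs, so effects of the siRNA itself and of ZCCHC17 loss cannot be told apart. The labels do not say whether replicates were separate cultures, and p-values therefore measure the spread between these libraries only.

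Interferons are secreted signals that cells release when they sense foreign or misplaced nucleic acid. Type I interferons bind the receptor pair IFNAR1 and IFNAR2, the kinases JAK1 and TYK2 are activated, and STAT proteins, STAT2 among them, join IRF9 in a complex that enters the nucleus. That complex binds the interferon-stimulated response element, a pair of GAAA blocks separated by a 2-base spacer, in the promoters of many interferon-stimulated genes. Their products sense viral RNA, stop its translation, degrade it, or hold viruses at membranes, and several feed back on the pathway. In the nervous system many of them are expressed at a low level without infection.

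The response element is shown for 10 of the genes that hold it. In siZCC, 6 of them fell (edgeR adjusted p under 0.05) and 4 had no decrease that passed. Of these 4, IFI44 (log2 fold change -0.15, siZCC over siNC) and ISG15 (-0.18) also lay lower in siZCC without passing. Sequences are RefSeq promoters of GRCh38.p14, written on the strand of the gene from 5′ to 3′, and capitals mark each whole match to GAAA NN GAAA (N is any base; TTTC NN TTTC when it lies on the other strand). A stretch of 60 bases is printed where no annotated exon of the gene touches it, and 30 bases otherwise. Those of the genes that fell are:
BST2, chr19:17405720-17405779, minus strand: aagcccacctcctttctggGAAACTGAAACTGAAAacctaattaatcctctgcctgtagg
IFI6, chr1:27672251-27672310, minus strand: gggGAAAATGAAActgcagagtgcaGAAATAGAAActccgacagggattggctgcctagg
IFITM1, chr11:313990-314019, plus strand: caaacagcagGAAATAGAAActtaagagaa
IFITM3, chr11:320876-320905, minus strand: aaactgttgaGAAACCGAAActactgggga
OAS3, chr12:112938444-112938473, plus strand: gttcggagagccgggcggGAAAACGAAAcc
PARP9, chr3:122564322-122564351, minus strand: gggcgcaaagTTTCAGTTTCgcttccctgg
Those of the genes without a decrease that passed are:
HERC5, chr4:88457020-88457079, plus strand: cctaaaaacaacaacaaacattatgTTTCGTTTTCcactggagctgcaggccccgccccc
IFI44, chr1:78649729-78649788, plus strand: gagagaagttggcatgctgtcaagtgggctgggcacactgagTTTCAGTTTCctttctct
ISG15, chr1:1013380-1013409, plus strand: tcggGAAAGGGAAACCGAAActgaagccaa
IFIT1, chr10:89392510-89392539, plus strand: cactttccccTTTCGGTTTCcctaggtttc

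In BST2 and ISG15 overlapping copies of the element run together into a block of 3 GAAA units. Promoters of 27 of the 34 genes were found, 37 promoters in all because some genes have several starts, and IFIT2, IFITM2, IRF7, MX2, OAS2, OASL and USP18 had no entry. In the 250 bases before the start, 23 of the 37 promoters (62.2%) held the element, against 3.02% of the 35116 promoters in the table. By gene, it was found in 8 of the 11 matched genes that fell and in 12 of the 16 other matched genes. The matched genes without it were CMPK2, DDX58, IFI35, IRF9, OAS1, STAT2 and XAF1. The gamma-activated site TTCNNNGAA, which is bound by STAT protein pairs, reads the same on both strands and may overlap the first motif; it was in 10 of the 37 promoters (27.0%) and in 6.57% of all promoters. By gene it was in 5 of the 11 that fell and in 4 of the 16 others. A match is a description of the letters in this window, and binding was not measured.

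The siRNA target checked the labels. ZCCHC17 stood at 54.0 to 61.0 CPM (counts scaled to a common library size, with a correction for library composition) in siNC and at 9.37 to 10.6 CPM in siZCC, 17.6% of the control level. Total counts lay between 90755953 and 120023356 in the siNC libraries and between 76115083 and 105389055 in the siZCC libraries, so the controls tended to be deeper. The cells carried neuronal and progenitor or glial RNA together: mean CPM in siNC was 1027 for MAP2 and 649 for DCX, 3550 for VIM, 621 for SOX2 and 616 for GFAP, and 1.27 for the mature neuron gene RBFOX3. Libraries also fell into 2 sets by the cytokine gene IL1B, with 3 libraries of each group at 5.23 to 16 CPM and 3 at 0.0223 to 0.100 CPM. Results within each set are given below beside the pooled ones.

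Of the 34 genes, 33 passed the filter on low counts, and 16 of these differed between the groups (edgeR's quasi-likelihood test; a gene is called where its Benjamini-Hochberg adjusted p over all genes tested is under 0.05). That is 48.5%, where 22.2% of the 24671 genes tested differed. By direction, 14 were lower in siZCC, against a background of 10.8% lower, and 2 were higher, against 11.4%. The median log2 fold change of the 33 genes was -0.18 (siZCC over siNC), and that of all genes was -0.0016; 27 were negative and 6 positive. In 8 genes every siZCC library lay below every siNC library, a separation found in 4.5% of all genes, and in 1 gene, HERC5, every siZCC library lay above, found in 5.25%. Fitted decreases of more than 1.2-fold were seen in 11 of the 33, and in 10.3% of all genes. The gene left out by the filter was MX2, at 8 to 13 counts per siNC library and 4 to 16 per siZCC library. In bulk RNA, fewer cells of a kind and less RNA per cell cannot be told apart.

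**Figure D1:**
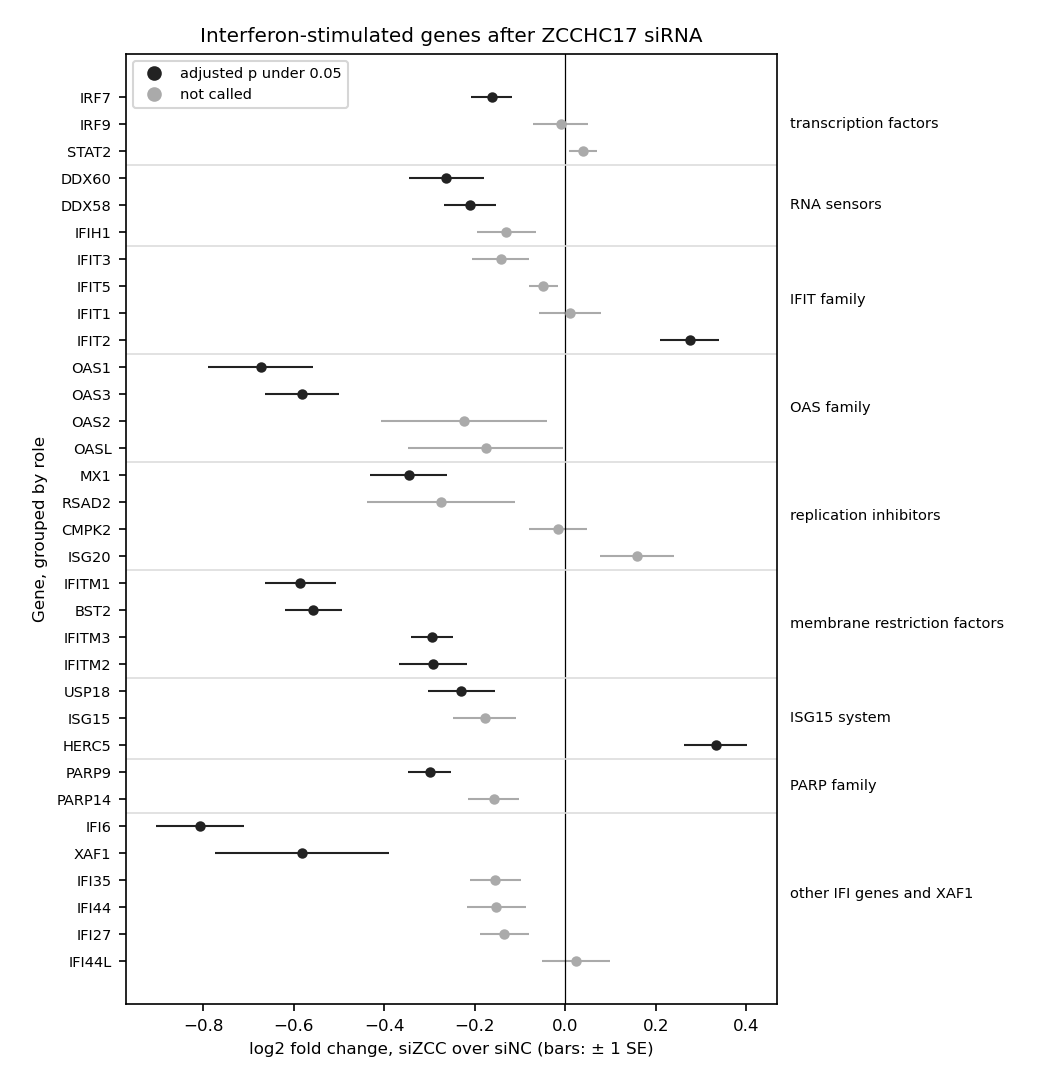
Log2 fold change (siZCC over siNC) of the 33 genes tested, with bars of 1 standard error, grouped by role; black points have an adjusted p under 0.05. The largest decrease is that of IFI6 (-0.81) and the largest increase that of HERC5 (0.33), and all 4 membrane restriction factors lie to the left of 0.

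The genes are described by role. The roles hold 2 to 6 genes each, and differences between roles were not tested.

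Of the 3 transcription factors, 1 fell. STAT2, a subunit of the type I complex, had a lowest, median and highest level of 102, 104 and 112 CPM in siNC and 104, 108 and 116 CPM in siZCC. The ranges overlapped, and the log2 fold change of 0.04 had a 95% interval from -0.03 to 0.11 (edgeR adjusted p = 0.420). IRF9, which gives the complex its DNA contact, was at 7.30, 7.58 and 8.37 CPM in siNC and 6.67, 7.54 and 8.67 CPM in siZCC, with an interval of -0.14 to 0.12. In the annotation, 48.4% of the exon bases of IRF9 lie in the read-through gene AL136295.5 on the same strand, so its value is uncertain. IRF7, which drives the later wave of interferon transcription, fell by 0.16 on the log2 scale (SE 0.0457, edgeR adjusted p = 0.0166). It was at 13.5, 14.0 and 14.5 CPM in siNC and at 10.8, 12.8 and 13.2 CPM in siZCC, so all siZCC libraries lay below all siNC libraries.

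Of the 3 RNA sensors, 2 fell. DDX58, which encodes the sensor RIG-I of short double-stranded RNA, fell to 86.5% of control, from a lowest, median and highest level of 13.2, 14.3 and 16.3 CPM to 11.4, 12.8 and 13.7 CPM (log2 fold change -0.21, SE 0.0574, edgeR adjusted p = 0.0145). The groups overlapped, with the lowest siNC library inside the siZCC range. DDX60, a helicase linked to RIG-I signalling, went from 7.57, 8.87 and 11.2 CPM to 7.26, 7.56 and 7.83 CPM (-0.26, SE 0.0824, edgeR adjusted p = 0.0296). Its siZCC libraries were close together and its siNC libraries spread out, and the call was lost when siNC replicate 5 or 6 or siZCC replicate 1, 5 or 6 was left out (edgeR adjusted p up to 0.0718). IFIH1, the sensor MDA5 of long double-stranded RNA, did not pass (-0.13, interval -0.27 to 0.01).

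The IFIT proteins, which bind the ends of foreign RNA and block its translation, did not fall as a family. IFIT1 was at 28.6, 31.4 and 38.5 CPM in siNC and at 28.9, 32.2 and 36.6 CPM in siZCC, with a log2 fold change of 0.01 and an interval of -0.14 to 0.16. IFIT5 gave -0.05 (interval -0.12 to 0.02) and IFIT3 -0.14 (interval -0.28 to -0.00, edgeR adjusted p = 0.111). IFIT2 rose, from 12, 13.4 and 15.4 CPM to 15.1, 16.2 and 18.9 CPM, or 1.21-fold (log2 fold change 0.27, SE 0.0642, edgeR adjusted p = 0.0055). Its groups overlapped in a narrow band, and 8.68% of its exon bases are shared with the annotated gene AL353751.1 on the same strand.

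OAS enzymes make oligoadenylates, a second messenger, when they bind double-stranded RNA. OAS1 went from 1.87, 2.42 and 2.99 CPM in siNC to 1.18, 1.52 and 1.87 CPM in siZCC, 62.7% of control (log2 fold change -0.67, SE 0.116, edgeR adjusted p = 5.76e-04). The highest siZCC library met the lowest siNC library. OAS3 went from 8.74, 10.7 and 13.0 CPM to 6.4, 7.13 and 8.08 CPM, with no overlap (-0.58, SE 0.0814, edgeR adjusted p = 9.67e-05). OAS2 (-0.22, SE 0.183) and OASL (-0.18, SE 0.171), a relative without that enzyme activity, were below 1 CPM and did not pass.

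The replication inhibitors gave 1 call in 4 tested genes. MX1, a dynamin-like GTPase that traps viral particles, went from 5.70, 6.57 and 7.74 CPM to 4.41, 5.36 and 5.87 CPM, 78.7% of control (-0.35, SE 0.0854, edgeR adjusted p = 0.00784). Only the lowest siNC and the highest siZCC library crossed. RSAD2, the radical enzyme viperin, gave -0.28 (SE 0.163) and CMPK2, its neighbour and nucleotide kinase partner, gave -0.02 (interval -0.16 to 0.13). The exonuclease ISG20 gave 0.16 (SE 0.0818). None of these 3 passed.

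All 4 membrane restriction factors fell, where 10.8% of all genes did. In all 4 every siZCC library lay below every siNC library, as in 4.5% of all genes. The gap was very narrow in IFITM2, with 3.104 CPM in the lowest siNC library and 3.096 CPM in the highest siZCC library. BST2, tetherin, which holds budding virus to the cell surface, was measured at 27.6, 24.5, 27.8, 25, 30.9 and 29.7 CPM in siNC replicates 1 to 6 and at 18.6, 19.2, 19.2, 18.6, 16 and 21.0 CPM in siZCC replicates 1 to 6. This is 68.0% of control (log2 fold change -0.56, SE 0.0626, edgeR adjusted p = 1.35e-05). IFITM proteins block the fusion of viral and cell membranes. IFITM1 went from 6.11, 7.39 and 8.32 CPM to 4.06, 4.87 and 5.64 CPM, 66.7% of control (-0.59, SE 0.0789, edgeR adjusted p = 6.91e-05). IFITM3, which had the highest mean CPM of the list in siNC, went from 117, 123 and 126 CPM to 87.5, 100 and 112 CPM, 81.5% of control (-0.29, SE 0.0465, edgeR adjusted p = 2.81e-04). IFITM2 fell from 3.10, 3.41 and 4.0 CPM to 2.47, 2.85 and 3.10 CPM (-0.29, SE 0.0760, edgeR adjusted p = 0.0108). Of the 50-base words in their transcripts, 32.0% in IFITM1, 34.3% in IFITM2 and 35.2% in IFITM3 recur in other genes (mainly other IFITM genes and, for IFITM3, also AC136475.5 on the opposite strand), and the handling of such reads is not given in the sources used here. The 3 values are therefore not fully separate measurements, while BST2 shares 0 such words.

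The ISG15 system went both ways. ISG15, a ubiquitin-like protein that is attached to other proteins, was at 33.3, 37.2 and 46.4 CPM in siNC and 30.2, 32.6 and 36.9 CPM in siZCC and did not pass (-0.18, interval -0.33 to -0.02, edgeR adjusted p = 0.0766). HERC5, the ligase that attaches it, rose from 3.10, 3.30 and 3.6 CPM to 3.68, 4.18 and 4.66 CPM, or 1.26-fold with no overlap (0.33, SE 0.0695, edgeR adjusted p = 0.00253). USP18, which removes ISG15 and quiets the type I receptor, went from 5.20, 5.40 and 5.79 CPM to 3.86, 4.64 and 5.57 CPM (-0.23, SE 0.0737, edgeR adjusted p = 0.0330). The USP18 call was lost when any of 7 libraries was left out, siNC replicate 1, 3 or 6 or siZCC replicate 1, 2, 3 or 5 (edgeR adjusted p up to 0.0706). USP18 also shares 23.4% of its 50-base words with other genes, nearly all with its copy USP41.

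PARP9 and PARP14 encode ADP-ribosyltransferase family members that modulate interferon signalling. PARP9 went from 34.2, 39.2 and 43.2 CPM to 28.7, 31.8 and 33.2 CPM, 81.2% of control and without overlap (-0.30, SE 0.0470, edgeR adjusted p = 2.68e-04). PARP14 went from 39.9, 44.0 and 52.3 CPM to 38.2, 39.5 and 41.9 CPM and narrowly missed (-0.16, SE 0.0561, edgeR adjusted p = 0.0527). DTX3L, the ubiquitin ligase that works with PARP9 and lies head to head with it on the opposite strand, fell as well, from 29.8 ± 2.47 to 22.8 ± 1.07 CPM (SD, n = 6 each; -0.39, SE 0.0503, edgeR adjusted p = 4.97e-05). Their exons overlap over 2.43% of the PARP9 exon bases.

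IFI6, a small membrane protein of the endoplasmic reticulum and mitochondria, showed the largest decrease of the list. Replicates 1 to 6 stood at 99.3, 92.8, 102, 78.6, 135 and 113 CPM in siNC and at 57.4, 59.1, 56.3, 67.2, 50.8 and 64.3 CPM in siZCC. Every siZCC library was below every siNC library, and the level was 57.1% of control (-0.81, SE 0.0977, edgeR adjusted p = 2.56e-05). IFI27 (-0.13), IFI35 (-0.15) and IFI44 (-0.15) lay below control without passing, with edgeR adjusted p of 0.0817, 0.0617 and 0.106. IFI44L, the neighbour of IFI44, gave 0.02 with an interval of -0.15 to 0.19. XAF1, which binds the apoptosis inhibitor XIAP, passed at a level of 0.282 ± 0.0651 against 0.188 ± 0.0318 CPM (SD, n = 6 each; -0.58, SE 0.191, edgeR adjusted p = 0.0374). It rested on 10 to 39 counts per library, 38.3% of its exon bases lie opposite the noncoding gene PRAL, and it did not pass without the filter on low counts, in DESeq2, in limma voom or when any of 6 libraries was left out (siNC replicate 1, 5 or 6, siZCC replicate 1, 4 or 5).

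**Figure D2:**
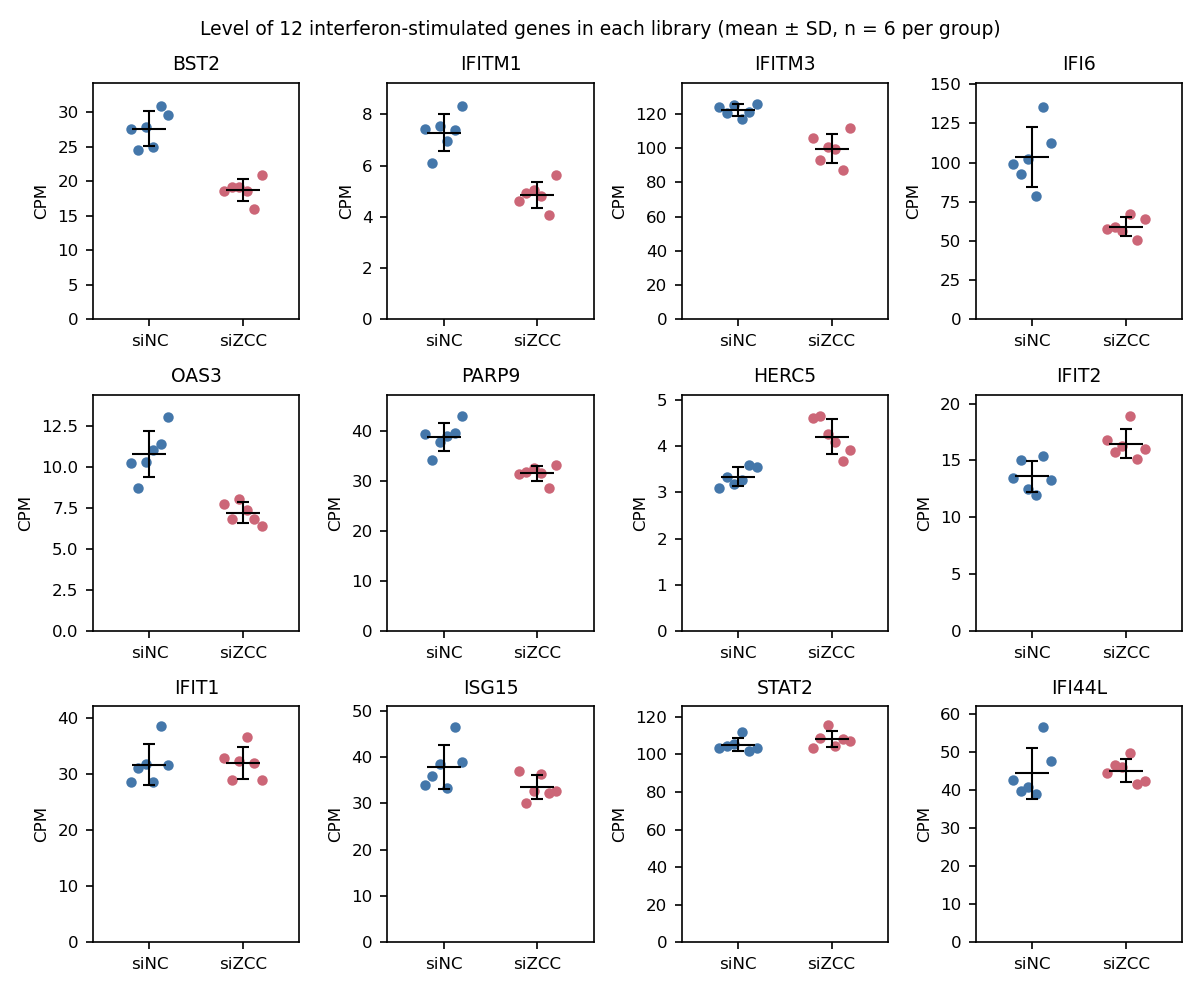
CPM of 12 of the genes in each library (points), with mean ± SD (bars, n = 6 per group) and axes from 0. BST2, IFITM1, IFITM3, IFI6, OAS3 and PARP9 are lower in all siZCC libraries, HERC5 is higher in all of them, and the groups overlap in IFIT2, IFIT1, ISG15, STAT2 and IFI44L.

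Levels between genes were compared per kilobase of annotated exon (GENCODE 29, GRCh38). The length counts every annotated exon of a gene, used or not, so a gene with many unused exon bases is ranked too low. In siNC, IFI6 led with 120 ± 22.3 CPM per kilobase, followed by IFITM3 at 90.8 ± 2.47, ISG15 at 40.2 ± 5.06, BST2 at 24.6 ± 2.25 and STAT2 at 17.2 ± 0.571 (SD, n = 6 each). IFI6 was above IFITM3 in 6 of 6 siNC libraries. In siZCC, IFITM3 stood at 74 ± 6.43 and IFI6 at 68.4 ± 6.80 (SD, n = 6 each), and IFI6 was below IFITM3 in 5 of 6 libraries. Other genes share 35.2% of the 50-base words of IFITM3 and 0% of those of IFI6. The IFITM3 level and this order are therefore uncertain. At the other end of the 33 genes tested were XAF1 at 0.0426 ± 0.00984, OAS2 at 0.0975 ± 0.0209 and OASL at 0.105 ± 0.0171 CPM per kilobase in siNC. Among the tested genes, those called lower thus included the leading pair (IFI6 and IFITM3) and the lowest (XAF1), whose call was not stable, as described above.

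Several genes of the list are neighbours on the chromosome, and neighbours did not always change alike. On chromosome 10 between 89283694 and 89421001, IFIT2, IFIT3, IFIT1 and IFIT5 gave log2 fold changes of 0.27, -0.14, 0.01 and -0.05. On chromosome 12 between 112906777 and 113011723, OAS1, OAS3 and OAS2 gave -0.67, -0.58 and -0.22. IFITM2, IFITM1 and IFITM3, between 307631 and 327537 on chromosome 11, gave -0.29, -0.59 and -0.29. For IFI44L and IFI44 on chromosome 1, 78619922 to 78664078, the values were 0.02 and -0.15, and PARP9 and PARP14 on chromosome 3 gave -0.30 and -0.16. Differences between neighbours were not tested.

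The genes also varied from library to library within a group. The mean log2 CPM of the 33 genes was 3.24 ± 0.0878 in siNC (3.14 to 3.35) and 3.04 ± 0.0733 in siZCC (2.94 to 3.15; SD, n = 6 each), a difference of -0.20. In 5 of the 6 siZCC libraries it lay below the lowest siNC library, and siZCC replicate 4, the highest of its group at 3.15, lay above siNC replicate 2. Within siNC, replicates 5 and 6 were above the group mean in 25 of the 33 genes each, and replicate 2 in 6. Within siZCC, replicate 4 was above it in 24 genes and replicate 5 in 6. Such common shifts mean that the 33 genes are not independent readings. Among the genes above 1 CPM in siNC, the spread of the controls was widest in RSAD2, IFI6 and OAS1, with coefficients of variation of 24.8%, 18.6% and 15.9%, and narrowest in CMPK2 (1.88%) and IRF7 (2.56%).

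**Figure D3:**
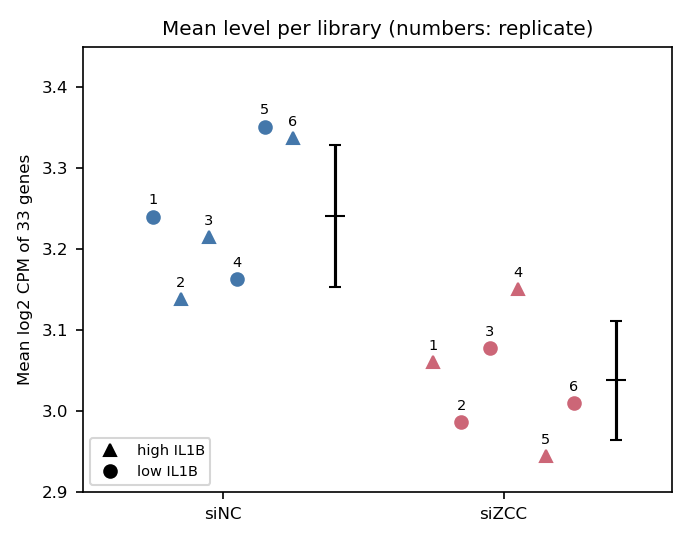
Mean log2 CPM of the 33 genes in each library (the axis does not start at 0), with replicate numbers and, as bars, the mean ± SD of each group. Triangles mark libraries with high IL1B and circles those with low IL1B, and in siNC both kinds are found at the top and at the bottom, while in siZCC the highest (replicate 4) and the lowest (replicate 5) library both have high IL1B.

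**Figure D4:**
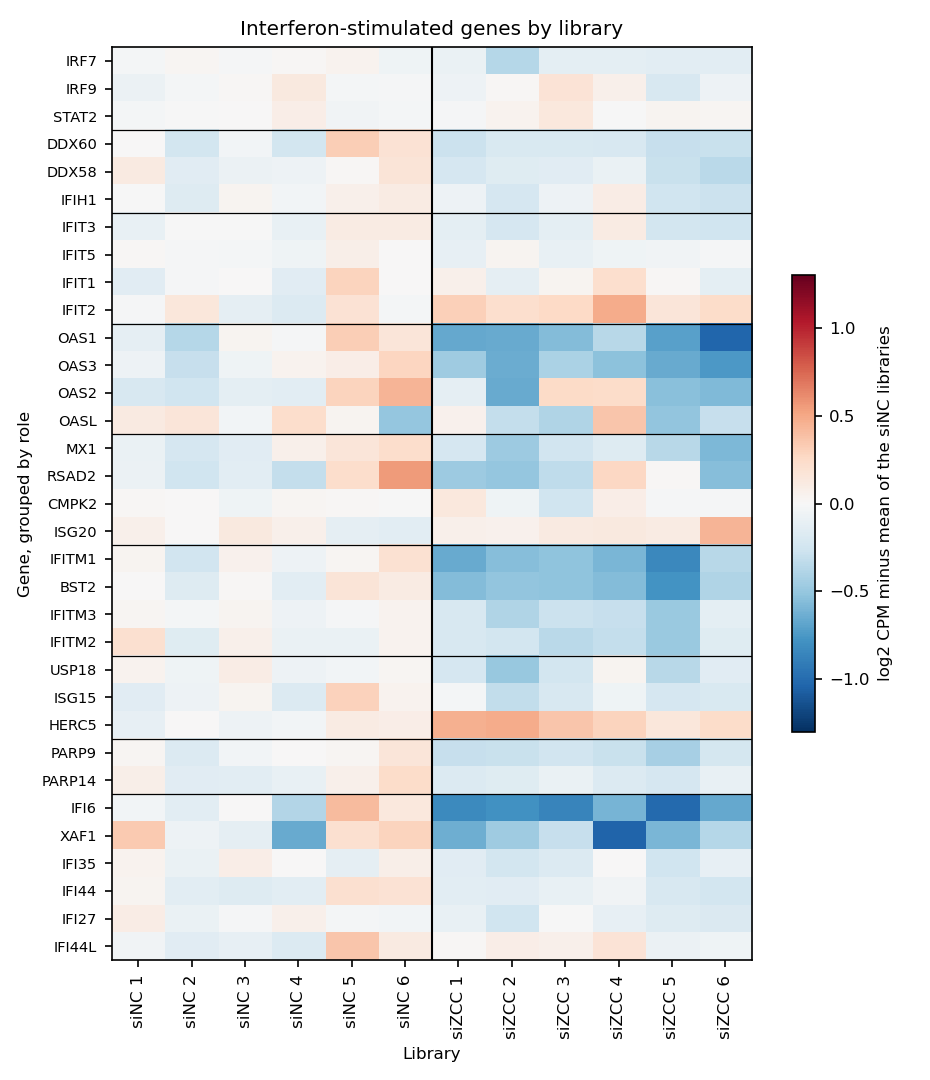
Log2 CPM of each gene in each library minus the mean of the siNC libraries, grouped by role (blue lower, red higher). BST2, the IFITM genes, OAS1, OAS3, IFI6 and PARP9 are blue across the siZCC libraries, HERC5 and IFIT2 are red, and siNC replicates 5 and 6 are redder than the other controls.

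The groups were also compared within each side of the IL1B split, with 3 libraries per group. On the high side 6 of the 34 genes tested passed, all lower in siZCC, where 8.2% of all genes were called, 3.98% lower and 4.22% higher. On the low side 8 of 33 passed, again all lower, where 6.45% of all genes were called, 2.95% lower and 3.5% higher. IFI6, BST2, IFITM1, IFITM3, OAS3 and PARP9 passed on both sides. IFI6 gave -0.81 on the high side and -0.80 on the low side, BST2 -0.63 and -0.49, IFITM1 -0.71 and -0.48, and OAS3 -0.55 and -0.62. OAS1 and MX1 passed on the low side only: OAS1 gave -0.54 on the high side (edgeR adjusted p = 0.0621) and -0.81 on the low side (edgeR adjusted p = 0.0125), and MX1 gave -0.22 (edgeR adjusted p = 0.282) and -0.48 (edgeR adjusted p = 0.0201). The other 6 genes called lower over all 12 libraries (DDX58, DDX60, IFITM2, IRF7, USP18 and XAF1) and the 2 called higher (HERC5 and IFIT2) passed on neither side. Differences between the sides were not tested.

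Upstream of these genes, almost no RNA was found for the interferon genes examined, all named here. Other interferon genes, among them the remaining IFNA genes, were not examined. IFNA1, IFNA2, IFNK and IFNL1 had 0 counts in all 12 libraries, and a count of 0 allows up to 3 counts, or 0.0250 to 0.0401 CPM depending on the library. IFNB1 had 1 count in all, IFNG 3 and IFNE 13. IFNL3 and its near-identical neighbour IFNL2, which encode lambda interferons, summed to 54 and 31 counts over the siNC libraries and to 8 and 6 over the siZCC libraries. Both are below the filter; without it they passed (edgeR adjusted p = 0.0109 and 0.0455), but on at most 15 counts in a library. The receptors were present: IFNAR1 stood at 133 CPM in siNC and gave -0.03 (SE 0.0276), while IFNAR2 stood at 10.9 CPM and gave -0.15 (SE 0.0550, edgeR adjusted p = 0.0682). Of the 6 ligand and receptor genes tested, 1 fell (16.7%, against 10.8% of all genes), the gamma receptor chain IFNGR2 (-0.12, SE 0.0345, edgeR adjusted p = 0.0208).

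Of 17 signal transducers and brakes tested, 4 fell and 1 rose, or 29.4% called in either direction, near the 22.2% of all genes. By direction, 23.5% were lower and 5.88% higher, against 10.8% and 11.4% of all genes. The feedback inhibitors SOCS3 (-0.51, SE 0.0918) and SOCS1 (-0.43, SE 0.131) fell, as did STAT3 (-0.10, SE 0.0307). The phosphatase gene PTPN11 rose by 0.10 (SE 0.0324). The edgeR adjusted p of these 4 genes ran from 8.25e-04 for SOCS3 to 0.0278 for PTPN11. The kinases JAK1 (0.04, SE 0.0301) and TYK2 (0.05, SE 0.0386) did not pass.

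Of 21 nucleic acid sensors and adaptors tested, 5 fell and 2 rose, or 33.3% called against the same 22.2%. By direction, 23.8% were lower and 9.52% higher, against 10.8% and 11.4% of all genes. The ligase TRIM25, which activates RIG-I, fell by 0.16 (SE 0.0348), the DNA-sensing adaptor STING1 by 0.38 (SE 0.0942) and the kinase IKBKE by 0.20 (SE 0.0577) on the log2 scale. IRF3, the factor that starts interferon transcription, rose by 0.14 (SE 0.0361). These 4 genes had an edgeR adjusted p between 0.00351 (TRIM25) and 0.0187 (IKBKE).

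Interferon-induced genes outside the list of 34 also gave more decreases than increases. In a list of 34 tested genes, 16 fell and 1, HELZ2, rose (0.15, SE 0.05), with a median log2 fold change of -0.13. LY6E, a surface protein that blocks viral entry, fell from 17.7 ± 0.566 to 13.1 ± 0.882 CPM (SD, n = 6 each; -0.43, SE 0.0447, edgeR adjusted p = 5.58e-06). SAMHD1, which depletes nucleotides, fell by 0.27 (SE 0.0303), and TRIM14, an adaptor of antiviral signalling, by 0.52 (SE 0.0639), both with no overlap. Of 10 tested genes known mainly as targets of interferon gamma, 5 fell and 0 rose, with a median of -0.46; 7 had an unadjusted p under 0.05. GBP1, a large GTPase, went from 8.58 ± 1.49 to 4.94 ± 0.772 CPM (SD, n = 6 each; -0.79, SE 0.114, edgeR adjusted p = 1.28e-04), WARS1 fell by 0.38 (SE 0.0588) and APOL6 by 0.62 (SE 0.104). The chemokine genes CXCL9, CXCL10 and CXCL11 had at most 8 counts in any library. Over these 5 lists 88 genes were tested, 31 fell and 4 rose, or 35.2% and 4.55%, against 10.8% and 11.4% of all genes.

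**Figure D5:**
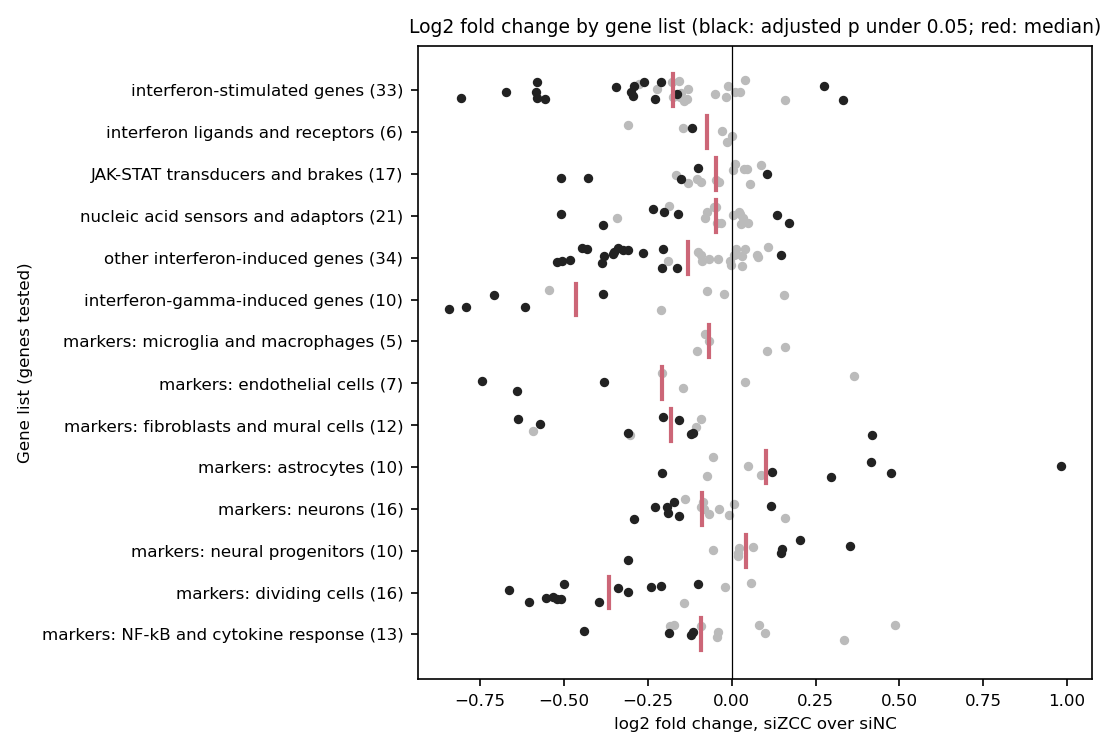
Log2 fold change (siZCC over siNC) of every tested gene in the interferon lists and in the marker lists, with list medians in red and genes at an adjusted p under 0.05 in black. Medians lie to the left of 0 for the interferon-stimulated genes (-0.18), the interferon-gamma-induced genes (-0.46) and the dividing-cell markers (-0.37). They also do for the endothelial markers (-0.21) and the fibroblast and mural cell markers (-0.18). The astrocyte (0.10) and progenitor (0.04) medians lie to the right, and the remaining lists have medians from -0.13 to -0.05.

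Markers of other cells and states moved in the same libraries. Of all genes tested, 10.8% were called lower and 11.4% higher, and of the interferon-stimulated genes 42.4% and 6.06%. Shares called lower were 81.25% for dividing cells, 58.3% for fibroblasts and mural cells, 42.9% for endothelial cells and 37.5% for neurons. Astrocyte and progenitor markers gave 10% lower each, and 50% and 40% higher. Of 16 dividing-cell genes, 13 fell and 0 rose, with summed levels of 1070 to 1194 CPM in siNC and 856 to 999 CPM in siZCC; CCNB1 fell by 0.61 (SE 0.0410) and BIRC5 by 0.51 (SE 0.0376), and the most abundant, TOP2A and MKI67, stood at 207 and 205 CPM in siNC. Of 7 endothelial markers tested, TEK (-0.75, SE 0.113), CLDN5 (-0.64, SE 0.0867) and ESAM (-0.38, SE 0.0691) fell, and the list summed to 16.4 to 22.1 CPM in siNC and 12.1 to 14.2 CPM in siZCC. The other 4 tested, PECAM1 (0.04, SE 0.274), VWF (0.37, SE 0.344), TIE1 (-0.21, SE 0.166) and KDR (-0.15, SE 0.124), did not pass and had at most 122 counts in a library, and CDH5, FLT1 and ERG, at most 17, were below the filter. Fibroblast and mural cell markers gave 7 lower and 1 higher of 12, with ACTA2 at -0.57 (SE 0.0821) and PDGFRB at 0.42 (SE 0.0498) and sums of 531 to 826 CPM in siNC and 448 to 621 CPM in siZCC. The highest sum was that of siNC replicate 4, and the other controls lay between 531 and 670 CPM. COL1A1 did not pass (-0.59, SE 0.408, edgeR adjusted p = 0.329); its median was 86.0 CPM in siNC and 86.3 CPM in siZCC, with 296 CPM in siNC replicate 4. Astrocyte markers gave 1 lower and 5 higher of 10, among them ALDOC (0.98, SE 0.0877) and NDRG2 (0.47, SE 0.0735), with GJA1 at 499 CPM in siNC and sums of 1952 to 2177 CPM in siNC and 2076 to 2388 CPM in siZCC. Neuron markers gave 6 lower and 1 higher of 16, with sums of 3477 to 3975 CPM and 3154 to 3629 CPM in siNC and siZCC; SLC17A6 gave -0.29 (SE 0.0507) and DCX -0.23 (SE 0.0480). Progenitor markers gave 1 lower and 4 higher of 10, with sums of 6295 to 6702 CPM and 6340 to 6886 CPM; SOX2 gave 0.20 (SE 0.0280), FABP7 -0.31 (SE 0.0463), and NES stood at 1118 CPM in siNC. The part of these shifts in the interferon-stimulated genes was not tested.

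Immune cells and cytokine signalling were looked at in the same way. None of the 5 microglia and macrophage markers tested passed edgeR's quasi-likelihood test, and 0 had an unadjusted p under 0.05; the list of 13 summed to 1.94 to 3.69 CPM in siNC and 2.16 to 3.36 CPM in siZCC, with AIF1, P2RY12 and C1QA at no more than 15, 8 and 4 counts in a library and the highest, CSF1R and SPI1, at 1.07 and 0.375 CPM in siNC. Of 13 NF-kB and cytokine genes tested, 4 fell (30.8%, against 10.8% of all genes) and 0 rose (against 11.4%). CCL2 fell by 0.44 (SE 0.117) and RELB by 0.19 (SE 0.0560). SOD2 stood at 70.1 CPM in siNC, and the summed levels overlapped (123 to 179 CPM in siNC, 117 to 163 CPM in siZCC). IL1B itself varied within each group far more than between the groups (log2 fold change 0.33, SE 1.05).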

How the data were processed

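Per the labels' protocols, total RNA went into a strand-marking library kit (NEBNext Ultra II Directional). The authors deposited whole-number counts per gene symbol, 1 column per library. The submitters' processing notes name bcl2fastq 2.17, STAR 2.7.6a, featureCounts 2.0.1 and GRCh38; the annotation, the strand setting and the treatment of shared reads are not given in the sources used here.

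The deposited counts entered edgeR 4.0.16 (R 4.3.3): filterByExpr (24671 of 59653 genes kept), TMM scaling, and the quasi-likelihood test of siZCC against siNC over all 12 libraries without covariates. The Benjamini-Hochberg adjustment covered every gene kept, and 0.05 was the threshold. The SE is the log2 fold change divided by the square root of F, and 95% intervals use 10 degrees of freedom. Levels are TMM-scaled CPM; log2 CPM uses a prior count of 2. Sequencing depth made counting error small above a few CPM, and a biological coefficient of variation of 6.55% set the precision. The fitting code was tested on simulated data. Pairs of libraries within a group differed by more than counting error (chi-square over its degrees of freedom, 4.72 to 22.3), so none was counted as a copy.

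The members and lists were chosen with earlier results of these data known. All members are reported, in full where called. Named besides are ZCCHC17, IL1B, the 3 genes with the smallest p in each direction among the called genes of each pathway list, and the 2 highest and the 2 with the smallest p of each marker list; other genes named (DTX3L, IFNAR1, IFNAR2, JAK1, TYK2, endothelial genes beyond TEK and CLDN5, and genes of few counts) were chosen after their values were seen. Some genes counted in the lists are not reported here by name. Motifs were searched in RefSeq promoters (GRCh38.p14), and positions, exon lengths and shared 50-base words come from GENCODE 29. Alternatives were other scalings and filters, DESeq2 1.42.0, limma 3.58.1 (voom), blocks by replicate number and by IL1B side, each IL1B side alone, thinning to 76115083 counts, and each library left out. A count without members that share over 20% of their words was chosen after seeing the data. Reads, splicing and proteins were not analysed here.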

Additional observations from a re-analysis of the deposited data

Results flagged for a closer look

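Dixon's criterion for a single distant library was applied to 72 sets of 6 values (library totals and gene levels, by group), and 6 of them passed it, where chance gives about 3.6. With 90755953 counts, siNC replicate 4 was the shallowest control; the other 5 held 109973707 to 120023356. IFIT1 stood at 38.5 CPM in siNC replicate 5, against 28.6 to 31.8. IFIT3 was at 11.0 CPM in siZCC replicate 4, against 8.53 to 9.32. ISG20 was at 2.54 CPM in siZCC replicate 6, against 1.95 to 2.04. STAT2 was at 112 CPM in siNC replicate 4, against 102 to 105. IRF7 was at 10.8 CPM in siZCC replicate 2, against 12.8 to 13.2, and without that library it still passed.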

How the results depend on the processing

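All 16 called genes kept their direction in each alternative in which they were tested, 23 for all but XAF1. IFI6, IFITM1, IFITM3, OAS3, BST2 and PARP9 kept their call in all 23; XAF1, USP18 and DDX60 were the only ones to lose it when a library was left out. Leaving out libraries gave 13 to 18 called genes of the list, 28 to 35 of the other interferon pathway genes (35 with all libraries) and 4484 to 5626 of all genes (5481). ZCCHC17 stayed between -2.56 and -2.46 throughout. Under the replicate block 17 of the list passed (PARP14 was added), 32 pathway genes and 4902 genes in all; same-numbered libraries were uncorrelated (-0.08 to 0.02) and the labels give no pairing. Without the 6 genes that share over 20% of their 50-base words, 11 of 27 passed, 2 higher and 9 lower. With only 6 libraries in each fit, the high and low IL1B sides called 6 and 8 genes of the list, 13 and 16 pathway genes, and 2043 and 1602 genes in all. Upper quartile scaling gave 2511 higher and 2905 lower of all genes, against 2818 and 2663. With 100 promoter bases in place of 250, 43.2% of member promoters and 1.2% of all promoters held the response element, by construction of a shorter window.

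Signs changed in 5 genes, none of them called. On the low IL1B side IFIT1 gave -0.086, IFI44L -0.033 and IRF9 0.032, and on the high side OASL gave 0.10 and CMPK2 0.085; the cause was not tested. Thinning gave -0.0011 for IFIT1 and 0.0049 for IRF9. Leaving out libraries gave -0.030 to 0.073 for IFIT1, -0.011 to 0.11 for IFI44L, -0.054 to 0.025 for IRF9 and -0.051 to 0.024 for CMPK2. OAS2, OASL and XAF1 lay under 1 CPM, with coefficients of variation of 16.2% to 23.1% in siNC, and MX2 was tested only without the filter (0.05, SE 0.314).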
